A study of Mus musculus with 4 samples.

Results

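The fatty acid uptake and binding genes of soleus muscle were taken as a group of 9 genes named by function: Cd36, Slc27a1, Slc27a4, Cav1, Vldlr, Fabp3, Fabp5, Acsl1 and Acsl4. Of these, 8 were represented among the 8252 genes with a symbol of their own on the array, by 12 probe sets that each carried exactly 1 gene symbol. A probe set is the group of short probes on the array that reports 1 transcript. No probe set was assigned to Acsl1 in the annotation used here, and that gene was not analysed. Soleus, a slow-twitch calf muscle, was taken from wildtype mice and from HSL-null mice, which lack hormone-sensitive lipase (HSL, the product of Lipe). Both groups were female mice aged 6 months, with no treatment in the labels, and the strain and the disrupted part of Lipe are not given there. The RNA of each genotype came from 1 pool of 5 mice, which was measured on 2 arrays as technical duplicates. Differences between the genotypes therefore have no replicate check across animals, no p-value was computed, and the errors below describe the arrays.

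Long-chain fatty acids reach a muscle fibre bound to albumin or released from triglyceride-rich lipoproteins at the capillary wall. They cross the membrane with the help of the scavenger receptor CD36 and of fatty acid transport proteins, and they are carried in the cytosol by fatty acid binding proteins. Acyl-CoA synthetases then couple them to coenzyme A, which traps them in the cell and commits them to oxidation or to storage as triglyceride. HSL works at the other end of this path, where it releases fatty acids from stored lipid, and the comparison asks how muscle gene expression differs without it.

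Each array gave a linear intensity for 12488 probe sets, with highest values from 5646 to 6183. With 2% of values trimmed at each end, the mean of every array as deposited was 100.1. Intensities from different probe sets depend on their probes and are not set against each other here. Lipe measured 71.4 and 70.2 on arrays 1 and 2 of wildtype and 16.2 and 19.4 on those of HSL-null, as the labels give it. The tissue label was checked on 4 skeletal muscle genes and 8 slow fibre genes, all of which lay above the filter described next, with Myh7, the myosin heavy chain of slow fibres, at means of 5122 (wildtype) and 5201 (HSL-null). Of the skeletal muscle genes, Acta1, the alpha-actin of muscle, was at a mean of 5090 in wildtype and 5393 in HSL-null, and Mb, myoglobin, at 4582 and 4710. Signal at the 3′ end over that at the 5′ end, which rises as RNA degrades, was 0.697 ± 0.0126 (SD over 2 arrays) in wildtype and 0.819 ± 0.00532 in HSL-null for beta-actin, and for Gapdh it was 0.941 ± 0.0203 and 0.917 ± 0.00716. The part of these ratios in the differences below was not tested.

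None of the fatty acid uptake and binding genes stood clearly apart between the genotypes. Probe sets with a mean intensity at or above the median of the table (27.7) were kept for the counts, and 8 of the 12 probe sets, for 7 genes, passed. With 2 arrays per genotype there are 4 pairs of an HSL-null with a wildtype array, and "separated" means that every pair differed at least 1.5-fold in the same direction. Of the 8 probe sets 0 were separated, against 28 of 6208 (0.451%) in the whole table, so that 0 of 8 does not set the group apart from the rest. The widest gap on any array pair at any of the 8 was 1.38-fold, for Fabp5. Over the 7 genes, each represented by its brightest probe set, the median log2 difference (HSL-null minus wildtype) was 0.07, with 5 genes above 0 and 2 below. Over all 4851 named genes above the filter it was -0.0041. The 0.07 was the value of Vldlr, counted above 0 by its brighter probe set. Its dimmer probe set, also above the filter, was at -0.24. With the mean over the probe sets of each gene, the median of the 7 genes was 0.06. Without wildtype array 1 the median of the 7 genes was -0.013, so that its direction rested on that array.

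**Figure D1:**
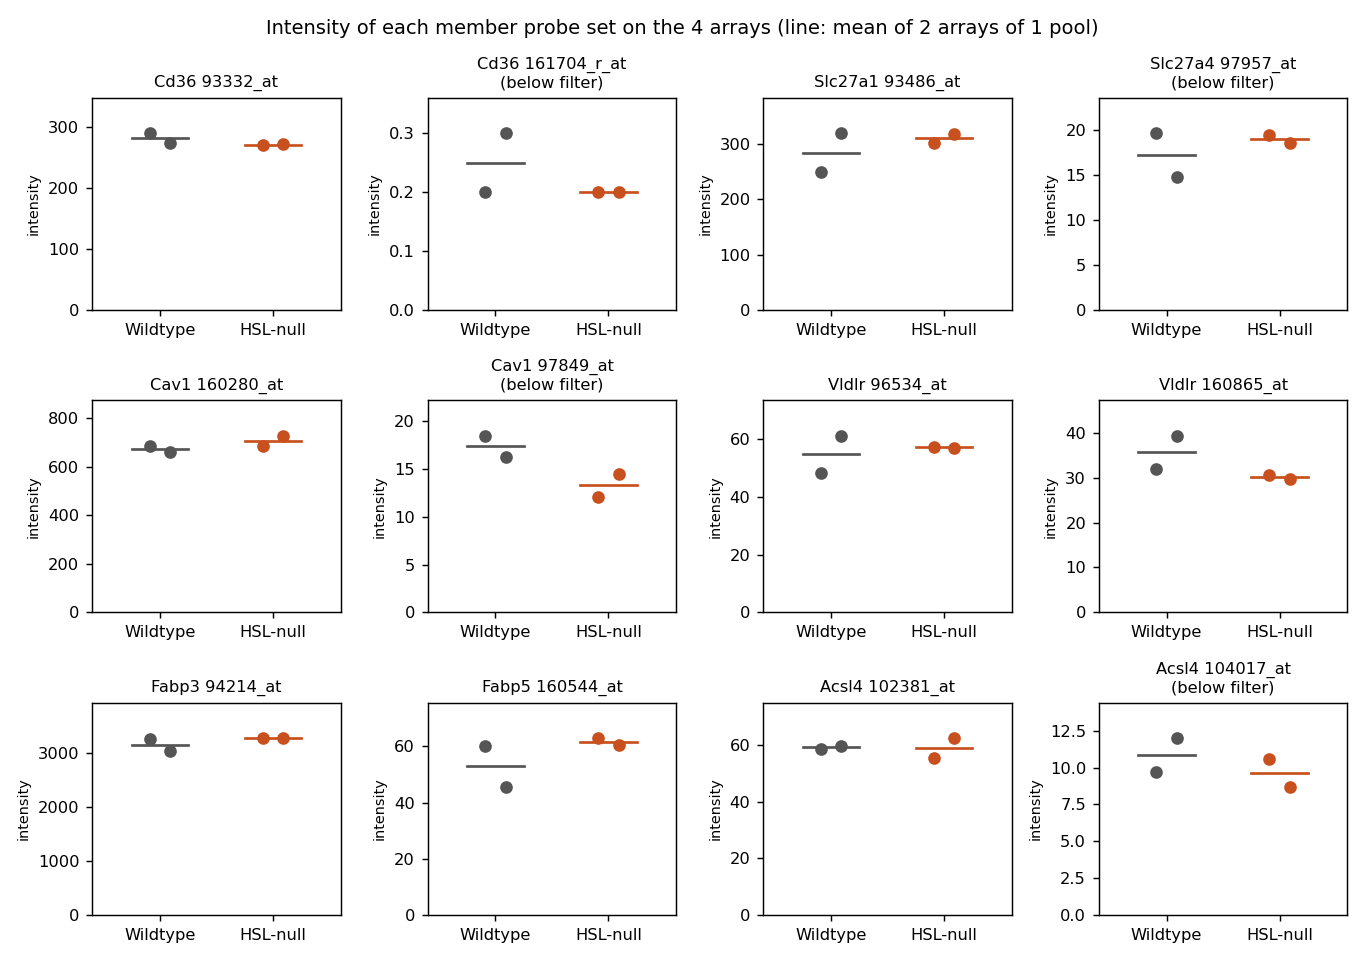
Linear intensity of each of the 12 probe sets on the 4 arrays, with array 1 at the left and array 2 at the right of each genotype, the mean of the 2 arrays as a line, and a scale of its own from 0 in every panel. The points of the genotypes lie close together for the probe sets that passed the filter. At each of these except the Cav1 probe set 160280_at, the 2 wildtype arrays lie further apart than the 2 means.

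The duplicates themselves differed by as much as the genotypes did. At all 8 probe sets above the filter the difference between the genotype means was smaller than the larger of the 2 gaps between duplicate arrays, which was so for 71.4% of the 6208 probe sets. The wildtype pair had the larger gap at 6 of the 8, against 51.3% of the table. The median size of the log2 difference at the 8, without its sign, was 0.07, and over the table it was 0.10.

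With no limit on size, the arrays of the genotypes did not overlap at 5 of the 8 probe sets, 3 higher and 2 lower in HSL-null. Of all probe sets above the filter, 40.6% did not overlap, 19.5% higher and 21.1% lower. This count depended on the scaling of the arrays: it was 3 of 8 with median centring, 2 with quantile normalization and 1 with cyclic loess. Median centring also moved the split over the whole table to 13.4% higher and 27.8% lower. The split was 20.4% higher and 20.4% lower with quantile normalization, and 20.6% and 20.3% with cyclic loess. Under all of these scalings the only one of the 8 without overlap was the dimmer Vldlr probe set, 160865_at, which was lower in HSL-null.

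**Figure D2:**
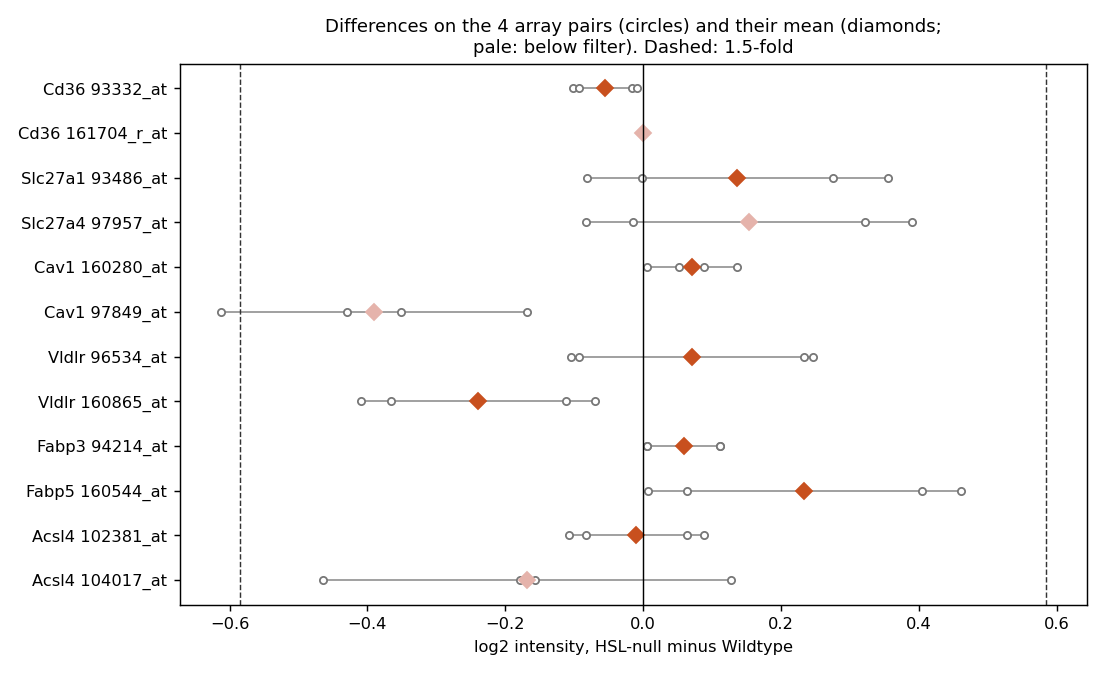
Log2 difference (HSL-null minus wildtype) on each of the 4 array pairs as circles, with the mean as a diamond, for all 12 probe sets, and dashed lines at 1.5-fold. A single circle lies past a dashed line, from the dim Cav1 probe set 97849_at at -0.61, and the circles of 3 of the probe sets above the filter lie on both sides of 0.

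CD36, the scavenger receptor that binds fatty acids at the plasma membrane and assists their entry, was measured by 2 probe sets. The brighter one, 93332_at, read 289.7 and 273.2 on arrays 1 and 2 of wildtype and 270.1 and 271.5 on those of HSL-null. Both HSL-null values lay below both wildtype values, though the ratio of the nearest pair was 0.994. The means were 281 ± 11.7 (SD, n = 2 arrays) and 271 ± 0.990, a log2 difference of -0.06 ± 0.04 (SE of duplicates). With quantile normalization or cyclic loess the arrays overlapped. The second probe set, 161704_r_at, read 0.2 and 0.3 in wildtype and 0.2 and 0.2 in HSL-null, far below the floor of 5.70 under which values were not distinguished, and it gave no fold.

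The fatty acid transport proteins FATP1 (Slc27a1) and FATP4 (Slc27a4) combine transport with acyl-CoA synthetase activity, and FATP1 is the form best known from muscle and fat. Slc27a1 read 249.5 and 319.6 on arrays 1 and 2 of wildtype and 302.1 and 319.1 on those of HSL-null. Both HSL-null values fell inside the range of the wildtype pair, whose own gap was 1.28-fold. The log2 difference was 0.14 ± 0.18 (SE of duplicates), and it was -0.04 without wildtype array 1 and 0.32 without wildtype array 2. Slc27a4 read 19.6 and 14.8 in wildtype and 19.4 and 18.5 in HSL-null, below the filter. Its HSL-null arrays also lay between the wildtype arrays, with a log2 difference of 0.15 ± 0.21.

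Caveolin-1 (Cav1) is the coat protein of caveolae, the membrane pits of endothelial cells and adipocytes, and it binds fatty acids. Its brighter probe set, 160280_at, read 684.2 and 662.2 on arrays 1 and 2 of wildtype and 686.8 and 727.7 on those of HSL-null. Both HSL-null values were the higher ones, and wildtype array 1 and HSL-null array 1 differed by 1.00-fold. The means were 673 ± 15.6 (SD, n = 2 arrays) and 707 ± 28.9, and the log2 difference of 0.07 ± 0.05 had overlapping arrays under cyclic loess. The dim probe set 97849_at, below the filter, read 18.5 and 16.3 in wildtype and 12.1 and 14.5 in HSL-null. There both HSL-null values were the lower ones, with a log2 difference of -0.39 ± 0.16, so that the 2 probe sets of Cav1 pointed in opposite directions. Among all 12422 probe sets that were not controls, with no filter on level, 14.1% were lower with no overlap.

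The very low density lipoprotein receptor (Vldlr) binds triglyceride-rich lipoproteins and brings their fatty acids to tissues such as muscle, heart and fat. Its brighter probe set, 96534_at, read 48.3 and 61.1 on arrays 1 and 2 of wildtype and 57.3 and 56.8 on those of HSL-null. The HSL-null values lay inside the wildtype range, with a log2 difference of 0.07 ± 0.17 (SE of duplicates) that was -0.10 without wildtype array 1 and 0.24 without wildtype array 2. The dimmer one, 160865_at, close to the filter, read 32.0 and 39.3 in wildtype and 30.5 and 29.6 in HSL-null. There both HSL-null values were below both wildtype values, and the log2 difference was -0.24 ± 0.15, or 0.847 of the wildtype level. The scalings gave -0.27 (quantile, and cyclic loess) and -0.28 (median centring), and the difference was -0.09 without wildtype array 2. Of the probe sets of the table, 82.6% had a smaller difference. The probe sets of Vldlr thus disagreed in sign and on whether the arrays overlapped, and no direction is read for the gene. In the count of genes above 0 it stood by its brighter probe set alone.

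Of the cytosolic carriers, Fabp3 encodes the fatty acid binding protein of heart and oxidative muscle fibres. Fabp3 read 3250.9 and 3021.1 on arrays 1 and 2 of wildtype and 3264.4 and 3264.5 on those of HSL-null. The HSL-null values were above both wildtype values, but wildtype array 1 lay within 1.00-fold of them. The means were 3136 ± 162 (SD, n = 2 arrays) and 3264 ± 0.0707, and the log2 difference was 0.06 ± 0.05. The arrays overlapped once they were centred on their medians, quantile normalized or scaled by cyclic loess, where the difference was 0.02, 0.03 and 0.04.

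Fabp5 encodes the epidermal fatty acid binding protein, which is also made in endothelium, macrophages and adipocytes. It read 60.2 and 45.7 on arrays 1 and 2 of wildtype and 62.9 and 60.5 on those of HSL-null. Wildtype array 1 stood next to the HSL-null arrays and wildtype array 2 was the low one. The means were 53.0 ± 10.3 (SD, n = 2 arrays) and 61.7 ± 1.70, a log2 difference of 0.23 ± 0.20, the widest above the filter apart from the dimmer Vldlr probe set. It was 0.43 without wildtype array 1 and 0.04 without wildtype array 2, and the arrays overlapped under each of the 3 other scalings.

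Long-chain acyl-CoA synthetase 4 (Acsl4), which prefers arachidonic acid, was the synthetase of the group that could be measured. Its brighter probe set, 102381_at, read 58.7 and 59.7 on arrays 1 and 2 of wildtype and 55.4 and 62.4 on those of HSL-null. The HSL-null values lay on either side of the wildtype pair, and the log2 difference of -0.01 ± 0.09 (SE of duplicates) was the smallest of the 8. The dim probe set 104017_at, below the filter, read 9.7 and 12.0 in wildtype and 10.6 and 8.7 in HSL-null, and the arrays overlapped there too.

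**Figure D3:**
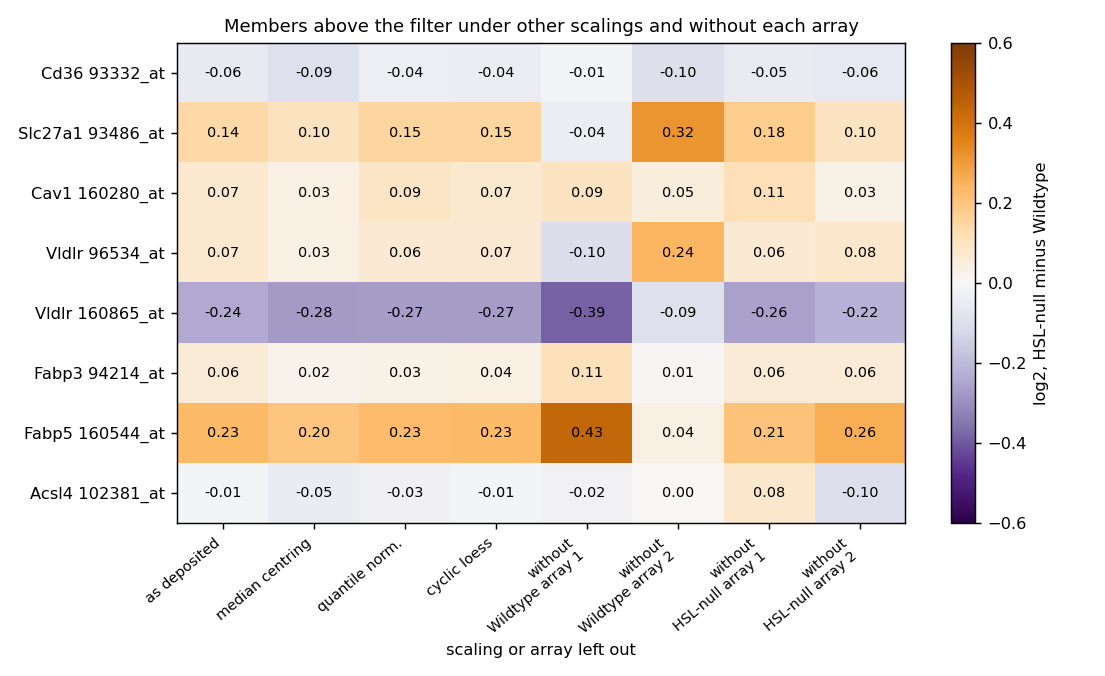
Log2 difference (HSL-null minus wildtype) of the 8 probe sets above the filter as a colour and a number, for the values as deposited, under 3 other scalings and with each array left out. Leaving out a wildtype array moved Slc27a1 between -0.04 and 0.32 and Fabp5 between 0.04 and 0.43, while none of the 3 scalings turned the sign of any of the 8.

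**Figure D4:**
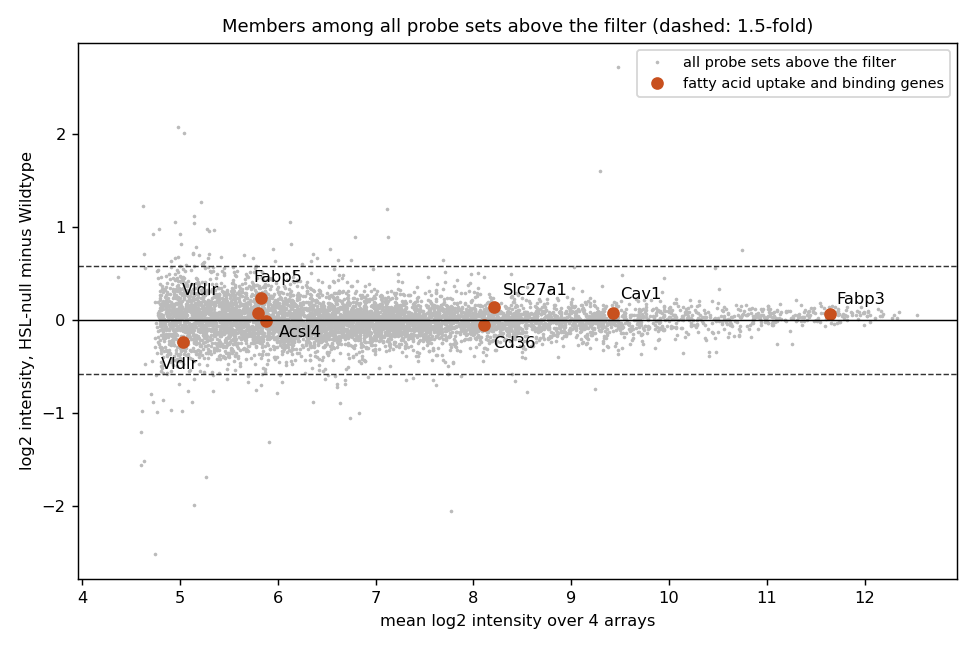
Log2 difference (HSL-null minus wildtype) against mean log2 intensity for the 6208 probe sets above the filter in grey, with the 8 probe sets of the fatty acid uptake and binding genes in colour and dashed lines at 1.5-fold. The 8 lie inside the grey band at their level, between -0.24 and 0.23.

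The genes around the uptake step were counted from 6 lists, in which 38 genes other than those above passed the filter. Of the 38, 1 was separated, where the share of the 4851 named genes was 0.454%, and 19 did not overlap (13 higher and 6 lower), against 41.2% of named genes (19.7% higher and 21.5% lower). The separated gene passed the filter only through its HSL-null arrays, so that nothing is read from this count. It was Med1, the part of the Mediator complex contacted by nuclear receptors, among the 8 measured regulators of uptake genes. Med1 read 21.9 and 26.2 in wildtype and 60.8 and 55.3 in HSL-null, a log2 difference of 1.28 ± 0.15 (SE of duplicates). The other 7 regulators lay between -0.11 (Rxrb) and 0.26 (Rxrg), and Ppara, a nuclear receptor activated by fatty acids, was at 0.12 ± 0.14.

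Among other fatty acid binding proteins 2 of 9 listed genes passed the filter. Dbi, the acyl-CoA binding protein, read 891.8 and 860.6 in wildtype and 951.4 and 938.0 in HSL-null, with no overlap and a log2 difference of 0.11 ± 0.03 (SE of duplicates). Fabp4, the adipocyte form, read 81.6 and 78.2 in wildtype and 76.0 and 65.7 in HSL-null, also with no overlap but in the other direction, at -0.18 ± 0.11. Of the other transport proteins and synthetases 3 of 11 passed, with a median of 0.06. The 2 with the highest level were Acss1, the mitochondrial acetyl-CoA synthetase, at 0.12 ± 0.05, and Got2, a mitochondrial aminotransferase also described as a fatty acid binding protein of the plasma membrane, at -0.08 ± 0.03.

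Of the genes of lipoprotein lipolysis and lipoprotein receptors 9 of 14 passed the filter, 3 with no overlap higher and 2 lower, beside 19.7% and 21.5% of named genes, and the median of 0.0033 was -0.03 with median centring. Lpl, the lipoprotein lipase that frees fatty acids at the capillary wall, read 2904.7 and 2616.9 in wildtype and 2853.1 and 3049.5 in HSL-null, with overlap and a log2 difference of 0.10 ± 0.09 (SE of duplicates), and its second probe set was at 0.09 ± 0.08 with no overlap. Scarb2, a lysosomal membrane protein of the CD36 family, was at -0.11 ± 0.03. Of 9 caveolar genes 6 passed, with a median of -0.05 that was -0.09 with median centring, -0.03 with quantile normalization and -0.04 with cyclic loess. Cavin1, the coat protein that works with caveolin, was at 0.02 ± 0.01, and Cav3, the caveolin of muscle fibres, at -0.18 ± 0.09 on its brightest probe set. The second Cav3 probe set, also above the filter, overlapped, at -0.0018 ± 0.03.

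Genes of acyl-CoA use in mitochondria and 3 acyl-CoA thioesterases (Acot1, Acot7 and Acot13) lay above 0 in 10 of 10 measured cases. Of all named genes 48.8% lay above 0, both for values as deposited. On those values 8 of 8 slow fibre genes and 8 of 9 fast fibre genes also lay above 0. The count of acyl-CoA genes was 10 of 10 with quantile normalization and cyclic loess, but 7 of 10 with median centring. Centring also moved the median log2 difference over all probe sets above the filter from -0.0022 to -0.04. Of the 10, 0 were separated and 5 did not overlap, all higher, beside 19.7% of named genes. The median of 0.08 was 0.05 with median centring, 0.06 with quantile normalization and 0.08 with cyclic loess. Acadm, the medium-chain acyl-CoA dehydrogenase, was at 0.15 ± 0.01 (SE of duplicates) and Hadhb, a subunit of the trifunctional protein, at 0.13 ± 0.04. The beta-actin ratio stood at 0.819 in the HSL-null pool and 0.697 in wildtype. The Gapdh ratio went the other way, at 0.917 and 0.941. The part of these ratios in the result was not tested.

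**Figure D5:**
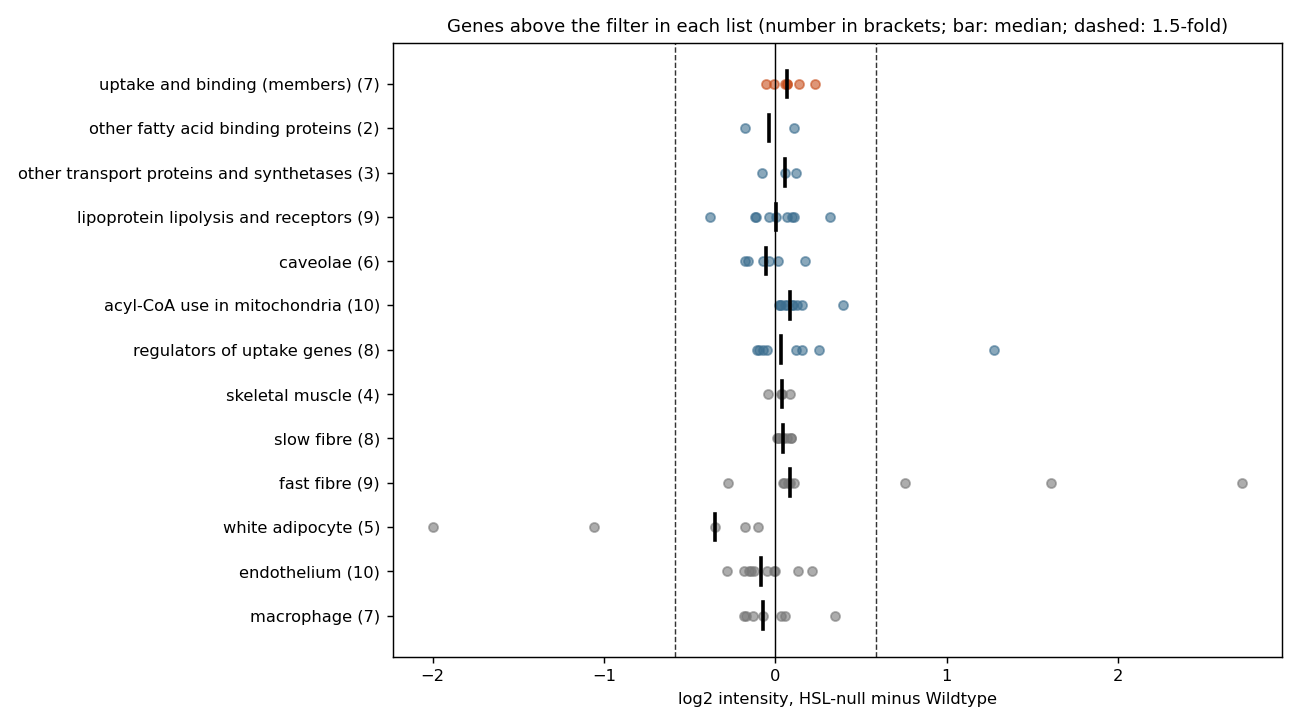
Log2 difference (HSL-null minus wildtype) of every gene above the filter in the group itself, in 6 lists of neighbouring pathway genes and in 6 lists of cell type markers, with the median of each list as a bar and dashed lines at 1.5-fold. The uptake and binding genes lie between -0.06 and 0.23. White adipocyte markers reach -2.00 (Lipe, the gene targeted). Fast fibre markers reach 2.72 (Myh4), with a median of 0.08.

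Several of the uptake genes are also expressed in cells between the fibres, so markers of those cells are given beside them. In whole muscle, fewer cells of a type and less RNA per cell cannot be told apart. Of 10 white adipocyte markers 5 were above the filter, all 5 below 0, beside 51.2% of named genes. Lipe, the gene targeted, passed the filter only through its wildtype arrays, so that nothing is read from its separation. Of the 4 without Lipe, 1 was separated lower (Adipoq), against 0.247% of named genes. Without Lipe the summed intensity of the remaining 4 was 523.2 and 518.2 on arrays 1 and 2 of wildtype and 378.2 and 393.8 on those of HSL-null. Adipoq, which encodes adiponectin, read 150.2 and 157.2 in wildtype and 73.5 and 74.1 in HSL-null. Cidec, a fat droplet protein of adipocytes, was below the floor on every array, at 3.8, 4.5, 2.0 and 0.4. At Cd36, Fabp5 and Cav1, which adipocytes also express, no array pair of the probe sets above the filter differed by 1.5-fold. The part of adipocyte RNA in their values was not tested.

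Of 11 endothelial markers 10 were above the filter and 0 were separated, with 2 without overlap higher and 2 lower, beside 19.7% and 21.5% of named genes. Of the 10, 8 lay below 0 (6 with quantile normalization or cyclic loess), beside 51.2% of named genes as deposited. The median log2 difference of the 10 was -0.09. Their summed intensity was 1177 and 1228 in wildtype and 1173 and 1151 in HSL-null. Both HSL-null sums were the lower ones, but the nearest pair, 1177 and 1173, lay closer together than the 2 wildtype arrays. The part of endothelial RNA in the values of Cd36, Fabp5, Cav1 and Vldlr was not tested. Cdh5, the cadherin of endothelial junctions, was at -0.0066 ± 0.06 (SE of duplicates) and Eng, endoglin, at -0.05 ± 0.08. Of 9 macrophage markers 7 were above the filter and 0 were separated, with a median of -0.07. Their summed intensity was 613 and 663 in wildtype and 621 and 645 in HSL-null, so that the sums overlapped. C1qc, a complement chain, was at 0.04 ± 0.21, and Lyz2, the lysozyme of myeloid cells, at -0.07 ± 0.06.

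Fibre type markers are given for Fabp3, which is known from oxidative fibres. The 8 slow fibre genes had a median of 0.05, with 0 separated and 3 without overlap, all higher, beside 19.7% of named genes. All 8 lay above 0 as deposited, 5 with median centring or cyclic loess and 4 with quantile normalization. With median centring the median was 0.0098 and 0 did not overlap, where 13.4% of probe sets above the filter were higher and 27.8% lower. With quantile normalization it was 0.0037 and 1 did not overlap, lower in HSL-null, beside 20.4% of probe sets. With cyclic loess it was 0.013 and 3 did not overlap, all higher, beside 20.6% of probe sets. Tnnt1, the slow troponin T, was at 0.05 ± 0.06 (SE of duplicates) on its brightest probe set and -0.06 ± 0.04 on the other, and Myh7 at 0.02 ± 0.07. The summed intensity of the 8 was 36953 and 34842 in wildtype and 37909 and 36340 in HSL-null. The sums overlapped, and wildtype array 2, on which Fabp3 was low, had the lowest. That array also had the lowest sums of skeletal muscle genes (11359) and of fast fibre genes (16078.5). Its highest value of any probe set (5646) was the lowest of the 4 arrays. The part of this array in the Fabp3 difference was not tested. Of the 9 fast fibre genes above the filter 3 were separated higher, against 0.206% of named genes. These were Myh4 at 2.72, Actn3 at 1.61 and Pvalb at 0.75, beside a log2 difference of 0.06 for Fabp3. The other fast fibre genes lay between -0.27 (Mylpf) and 0.11 (Myh1), and the median of the 9 was 0.08.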

How the data were processed

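The authors deposited 1 linear intensity per probe set and array; their software, background correction and scaling step: not given in the sources used here. With 2% trimmed at each end, each array had a mean of 100.1, and values were used as deposited. Values below the table's 25th percentile (5.70) were set to it, and log2 was taken. The 66 control probe sets were left out, which left 12422, of which 6208 passed the filter on the median of the means (27.7). The platform annotation gave 1 symbol to 10855 probe sets, several to 396 and none to 1237, and 10839 were matched by gene ID to RefSeq names (GRCm38.p6). No detection calls were used.

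The arrays of a genotype are technical duplicates of 1 pool, so that no test was made. Calls of separation were checked on simulated data. Errors are SDs over 2 arrays, or standard errors from the duplicates. The genes and lists were chosen with earlier results of these data known. All probe sets of the 9 genes are reported. In each other list the separated genes are named, at most 4, or where there are none the 2 with the highest level; Ppara, Rxrb, Rxrg and the markers named beside the uptake genes were chosen after their values were seen. Quantile normalization and cyclic loess used limma 3.58.1 in R 4.3.3, with zeros set to 0.1, and the rest Python 3.11.15, numpy 2.4.6 and pandas 2.3.3. Other alternatives were median centring, the floor, the filter, the fold, a left-out array, the replicate block and the mean over a gene's probe sets. The number of arrays limits the precision.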

Additional observations from a re-analysis of the deposited data

How the results depend on the processing

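The count of separated probe sets among the fatty acid uptake and binding genes was 0 under every alternative run: the scalings, the floors, the filters, the 1.2-fold limit, each array left out and the replicate block. The count over the table, 28, was 176 with no filter, 10 with the filter at the 75th percentile and 226 with the limit at 1.2-fold. It ran from 82 to 109 with an array left out, where fewer array pairs have to pass. The median log2 difference of the 7 genes, 0.07, ran from -0.013 (without wildtype array 1) to 0.076 (without HSL-null array 1), and from 0.03 to 0.07 under the other alternatives. The labels give no pairing of the arrays beyond a number. With the replicate number as a block, the table count was 35, and the gaps between same-numbered duplicates correlated at -0.086 across probe sets. The block changes only which array pairs are compared, so that the median of the 7 genes could not move. Signal limits the 4 probe sets below the filter, and the 2 arrays of 1 pool per genotype leave differences between animals unmeasured.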

Other observations

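A few genes near the uptake path differed more than the uptake and binding genes did on their probe sets above the filter. These few genes were chosen after their values were seen. Below the filter, the dim Cav1 probe set 97849_at was at -0.39 ± 0.16 (SE of duplicates). In size this was larger than the difference of Apoe or of the brightest Angptl4 probe set, and smaller than that of Acot1 or Rbp4. Acot1, a thioesterase that returns acyl-CoA to free fatty acid, read 41.6 and 39.0 in wildtype and 54.3 and 51.7 in HSL-null, with no overlap and a log2 difference of 0.40 ± 0.06 (SE of duplicates, n = 2 arrays per pool). Angptl4, an inhibitor of lipoprotein lipase, read 35.5 and 37.9 in wildtype and 41.1 and 51.0 in HSL-null on its brightest probe set, a difference of 0.32 ± 0.16. Of its other probe sets, all below the filter, one did not overlap, at 19.6 and 19.1 in wildtype and 22.0 and 35.0 in HSL-null. A further one overlapped, at 20.0 and 28.7 in wildtype and 6.3 and 39.1 in HSL-null, and the last was under the floor on all arrays. Apoe, the apolipoprotein that lipoprotein receptors bind, read 222.2 and 227.0 in wildtype and 186.4 and 159.9 in HSL-null, a difference of -0.38 ± 0.11. Rbp4, the retinol binding protein of plasma, also made by adipocytes, lay below the filter at 26.0 and 21.3 in wildtype and 13.9 and 10.1 in HSL-null. Acot1, Angptl4 and Apoe were not separated at 1.5-fold, and 41.2% of named genes above the filter had arrays that did not overlap.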
